A study of Oryza sativa with 72 samples.

Results

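In irrigated rice plants, 200 lines of the count table stood apart by being higher in the second latest leaf than in the latest fully expanded leaf, and these 200 features were followed through drought and rewatering. They were chosen from control libraries alone. A feature was eligible with a mean of at least 5 CPM in a control group, where CPM is a count scaled to a common library total of 1000000. It passed when its mean log2(CPM + 1) was at least 0.5 higher in the second latest leaf at each of the 6 stages sampled. The table has 55986 lines, of which 15123 were eligible and 227 passed, and the 200 with the largest smallest difference were kept. The lines carry no gene identifier, so each feature is named by its line number, no role can be given to any of them, and neither leaf identity nor drought markers could be checked by gene name.

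The leaves came from the indica rice cultivar IR64. At 14 days after sowing, treated plants stood in raised pots that drained faster for 9 days and then had 6 days of watering, whereas control plants were irrigated throughout. The latest and the second latest leaf were taken from treated and from control plants at drought days 0, 6 and 9, at 2 h after rewatering, and at rehydration days 3 and 6. Polyadenylated RNA of 3 replicates was sequenced in each of the 24 groups, and by its title the study looked for genes whose expression tracks drought as the plant senses it. The labels do not say that replicates were separate plants, nor whether a leaf position was the same leaf at every stage, so each p-value refers to the spread among the libraries of a group, part of which can be technical.

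A grass shoot adds its leaves in sequence, so the second latest leaf is older than the latest. As a leaf ages it goes from importing to exporting carbon, and late in life it breaks down chloroplasts and proteins and sends nitrogen to younger leaves and grain. Drought in rice is known to close stomata, to raise abscisic acid and to bring senescence of older leaves forward. In whole leaves, a change in the share of a cell type and a change in RNA per cell cannot be told apart.

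Of the 72 libraries 71 were used, with 6370914 to 24192248 counts each (median 13764577), so that 3 counts equal between 0.471 and 0.124 CPM. Replicate 2 of the treated latest leaf at drought day 9 held 1755 counts and was left out, which leaves 2 treated libraries in that group. All 200 features passed the low-count filter of every fit, and 8 of them were at 0 in at least 1 usable library. Whole profiles of control leaves also shifted with position. The median over the eligible features was 0.09 to 0.25 log2 higher in the second latest leaf, depending on the stage, and scaling libraries by trimmed means in the rule left 113 passing features, all of them among the 200.

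The rule's own values describe the set. In control plants the median difference over the 200 features, second latest minus latest leaf, was 1.07, 0.88 and 1.14 log2 at drought days 0, 6 and 9, 0.86 at 2 h, and 1.02 and 0.81 at rehydration days 3 and 6. Feature 35435 was far out in front, with a smallest difference of 3.82, followed by feature 32031 with 1.60, feature 25456 with 1.46, feature 3529 with 1.42 and feature 27022 with 1.30. The limit of 200 fell between near-equal values, since feature 2349, the last kept, and feature 28668, the first left out, both had a smallest difference of 0.521. At the threshold itself, feature 442 passed with 0.5002 and feature 37364 failed with 0.499.

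Most of the 200 were modestly expressed. Their mean level in the control second latest leaf ran from 3.66 to 4900 CPM, with a median of 15.7 CPM, and the eligible features had a median of 22.3 CPM there. The 5 most abundant were features 5967, 6388, 35435, 35557 and 21090. Feature 5967 had 5123, 5431 and 4798 CPM in the treated and 4158, 5175 and 5437 CPM in the control second latest leaf at drought day 9, so its groups overlapped. Its latest leaves had 4209.9 and 4452 CPM in treated against 1864, 2619 and 528 CPM in control plants, a log2 ratio of 1.16 ± 0.45 (SE; adjusted p = 0.0899, edgeR quasi-likelihood test with Benjamini-Hochberg adjustment, as for every adjusted p given). Feature 6388 followed the same outline, with 2875 and 3436 CPM in the treated latest leaf and 1329.9, 2259.8 and 523 CPM in the control latest leaf at that stage, and it did not pass the test either (log2 ratio 0.98 ± 0.44, adjusted p = 0.147).

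Among the 200 there were 4 pairs of neighbouring lines in the table, namely 3715 with 3716, 5966 with 5967, 27021 with 27022 and 28273 with 28274. Neighbours were alike in some pairs and not in others. Features 27021 and 27022 averaged 4.72 and 6.89 CPM in treated second latest leaves at drought day 0 and 14.6 and 18.5 CPM at 2 h. Feature 5966 stayed at or under 18 CPM in every library, whereas feature 5967 was the most abundant of all the features in the set.

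The treated libraries took no part in the choice and gave an independent measurement of the same leaf difference. The second latest leaf of treated plants was higher for 198, 198, 189, 196, 200 and 183 of the 200 features at drought days 0, 6 and 9, 2 h, and rehydration days 3 and 6. Over all 21204 features tested, 70.0, 66.4, 61.5, 60.3, 72.0 and 68.7% were higher in that leaf. The median differences on the log2(CPM + 1) scale were 0.92, 0.81, 0.60, 0.75, 0.95 and 0.57 in that order, against 0.06 to 0.14 over all features tested. The difference was therefore smallest at rehydration day 6 and drought day 9, where 110 and 118 of the 200 kept a difference of 0.5 or more (8.46% and 4.73% of all features tested). It was largest at rehydration day 3, where 193 did (9.92%). At drought day 9 the difference was smaller in treated than in control plants for 179 of the 200 features, although the control value was also the one that chose them. The same held for 145 and 113 at drought days 0 and 6, 125 at 2 h, and 114 and 141 at rehydration days 3 and 6. Over all features tested the median difference at drought day 9 was 0.063 in treated and 0.208 in control plants.

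**Figure D1:**
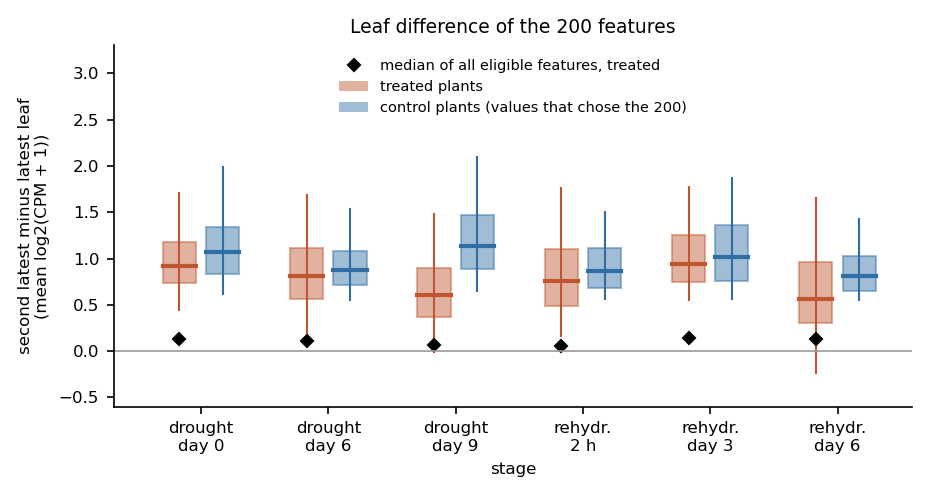
Leaf difference per feature, as mean log2(CPM + 1) in the second latest leaf minus that in the latest leaf, at the 6 stages in treated and control plants; boxes span the quartiles, the line is the median and whiskers reach the 5th and 95th percentile of the 200 features. Black diamonds mark the median of all 21204 features tested in treated plants (named eligible in the key), at 0.06 to 0.14. The control values chose the features, and the treated medians are lowest at rehydration day 6 (0.57) and drought day 9 (0.60).

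Same-numbered leaves gave the same picture library by library. Within treated plants, the median difference between leaves with the same replicate number was 1.04, 0.773 and 1.01 log2 at drought day 0, and 0.99, 0.672 and 0.827 at day 6. It was 0.539 and 0.483 at day 9, where only 2 pairs existed. It was 0.462, 0.829 and 0.965 at 2 h, then 1.16, 0.921 and 0.847 at rehydration day 3 and 0.621, 0.541 and 0.595 at day 6. All treated pairs therefore had a positive median, and both pairs at drought day 9 lay below every pair of drought days 0 and 6.

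Few single features passed the test of this leaf difference. In treated plants the second latest leaf was called higher for 2 of the 200 at drought day 0 (0.0755% of all 21204 features tested), 14 at day 6 (0.255%), 4 at rehydration day 3 (0.0849%) and 8 at rehydration day 6 (0.241%). No feature of the set was called lower in that leaf at any stage. None was called at drought day 9 (0% of all features) or at 2 h (0.0141%), although 70 and 117 features were higher and none lower at an unadjusted p under 0.05 (8.31% and 12.9% of all features in either direction). DESeq2 called 5 and 35 higher (0.118% and 0.571% of all features). Leaf pairs of treated plants deviated together at drought days 0 and 6, 2 h and rehydration day 6. With the replicate number as a block 115, 99, 94 and 57 of the 200 were called higher there (2.39%, 2.32%, 2.11% and 2.49% of all features). In the same fits 0, 1, 0 and 2 were called lower (3.91%, 4.02%, 2.29% and 4.76% of all features). The libraries of both leaves did not overlap, the second latest being higher, for 167 of the 200 at drought day 0 (23.3% of all features) and 142 at day 6 (21%). The same held for 116 at day 9 (17.2%), 103 at 2 h (15.1%), 96 at rehydration day 3 (11.7%) and 70 at day 6 (9.99%).

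The called leaf differences without a block depended on single libraries. For fits with 1 library left out, here and below, the share over all features called is not given. Those counts therefore describe the fits and not the set. Leaving out 1 library gave between 0 and 11 called features at drought day 0, with 11 when latest leaf replicate 2 was left out and 0 or 1 otherwise. At day 6 the count fell to 0, 1 and 2 without latest leaf replicates 1, 2 and 3, and to 0 without second latest leaf replicate 1 or 3. At 2 h it was 34 without latest leaf replicate 1, and 0 without any other. At rehydration day 3 it was 53 without second latest leaf replicate 2 and 42 without latest leaf replicate 3, but 0 without latest leaf replicate 1 or 2 or second latest leaf replicate 3, and 2 without second latest leaf replicate 1. At rehydration day 6 it was 37 without latest leaf replicate 2 and between 0 and 2 without each of the other 5 libraries.

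Feature 55788, chosen after its values were seen because it was called at 3 stages, showed a steady leaf difference. It had 24.1, 20 and 25 CPM in the second latest and 11.4, 11.7 and 12.7 CPM in the latest leaf of treated plants at drought day 6. At rehydration day 6 it had 13.4, 22.6 and 17.4 CPM against 7.42, 10.1 and 7.34 CPM. The leaves did not overlap at either stage, and the log2 ratios were 0.82 (adjusted p = 0.0215) and 0.94 (adjusted p = 0.0115). The named features with the widest leaf difference in treated plants were features 35557 and 55115 at drought day 9 (log2 ratios 2.11 ± 0.74 and 2.05 ± 0.65) and 37062 and 35435 at 2 h (2.67 ± 0.85 and 2.07 ± 1.39), and none of these passed the test without a block. Feature 37062 had 57.5, 7.23 and 9.7 CPM in the second latest and 8.44, 1.25 and 1.79 CPM in the latest leaf at 2 h, so replicate 1 was the highest in both leaves.

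At drought day 9 a few features were higher in the latest leaf of treated plants. Feature 5966 had 9.15, 1.91 and 2.14 CPM in the second latest and 13.9 and 7.5 CPM in the latest leaf of treated plants, and feature 19306 had 37.5, 27.7 and 83.9 CPM against 54.1 and 104 CPM. Both sets of libraries overlapped, and neither difference passed the test (log2 ratio -1.32 ± 0.97, adjusted p = 0.778, and -0.74 ± 0.64, adjusted p = 0.825).

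The response to drought was set out as the level of the whole set in each library, the mean log2(CPM + 1) over the 200 features. For the second latest leaf this level was 4.37, 4.45 and 4.04 in treated plants at drought days 0, 6 and 9, 4.07 at 2 h, and 3.98 and 3.63 at rehydration days 3 and 6. In control plants it was 4.22, 4.38, 3.83, 4.08, 4.38 and 4.46 in the same order. At drought day 9 the treated second latest leaves, at 3.95, 4.11 and 4.06, lay just above the controls, at 3.69, 3.94 and 3.88. The widest gap in this leaf was at the last sampling, where treated replicates stood at 3.29, 4.01 and 3.60 and control replicates at 4.29, 4.35 and 4.73 without overlap. Latest leaves of treated plants had 3.39, 3.58, 3.41, 3.24, 2.92 and 2.99, against 3.07, 3.44, 2.59, 3.14, 3.25 and 3.57 in control plants. The widest gap there was at drought day 9, with 3.32 and 3.50 in the 2 treated libraries against 2.63, 2.95 and 2.17 in the controls. At that stage it was the control value that departed from its other stages, whereas the treated value lay within the range of the other latest leaf groups. The mean over all features tested differed in the same direction there, at 3.435 and 3.544 in treated against 3.292, 3.375 and 3.211 in control latest leaves. It did so too in second latest leaves at rehydration day 6, at 3.453, 3.588 and 3.55 in treated against 3.652, 3.688 and 3.802 in control plants.

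**Figure D2:**
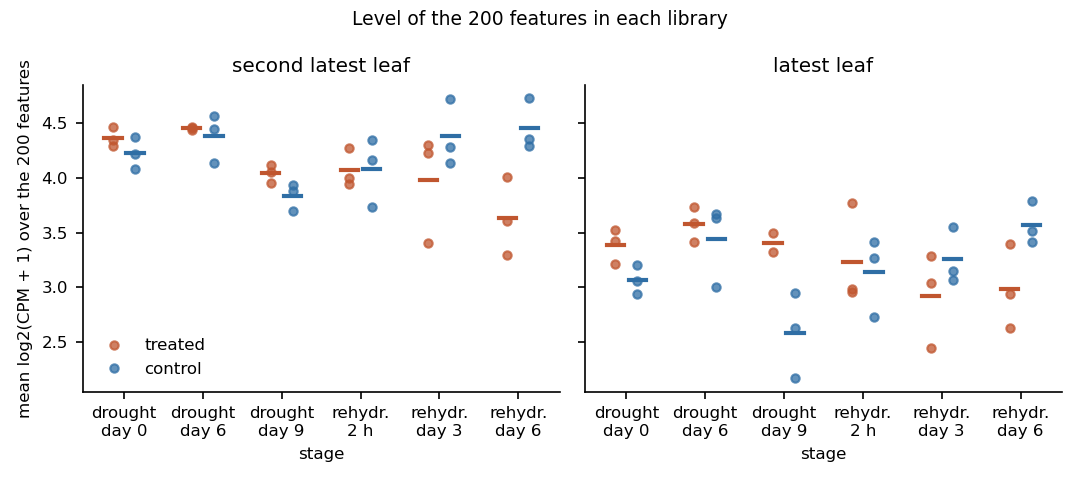
Level of the set, the mean log2(CPM + 1) over 200 features, in each of 71 libraries by stage; points are libraries and bars are group means, with treated left of control at each stage. At drought day 9 the treated latest leaves sit at 3.32 and 3.50, above all 3 controls, and in the second latest leaf at rehydration day 6 the treated libraries lie at 3.29 to 4.01, below all 3 controls.

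At drought day 0 the treated and control plants were already not identical. Of the 200 features 1, feature 9793, was called higher in the latest leaf of treated plants (0.266% of all features). With the block none was called (0.176% of all features higher and 0.223% lower). DESeq2 called 5, and its share over all features is not given. The edgeR call of feature 9793 was lost without control replicate 1, 2 or 3 or treated replicate 3. Feature 9793 had 13.3, 15.8 and 22.4 CPM in treated and 0.88, 2 and 1.4 CPM in control plants, a log2 ratio of 3.48 ± 0.72 (adjusted p = 0.0257). None was called in the second latest leaf at day 0 (0% of all features), with 16 at an unadjusted p under 0.05 (10.5% of all features) and none by DESeq2. The medians over the 200 were 0.07 log2 in the second latest and 0.24 in the latest leaf, beside -0.02 and 0.00 over all features.

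After 6 days of drought the set had no common direction. Here and below, a feature rose or fell where it was called higher or lower in treated than in same-stage control plants. In the second latest leaf 2 features rose (0.84% of all features) and 2 fell (0.606%), and the median was -0.22 log2. For the latest leaf 9 rose (2.19%) and 5 fell (1.56%), and the median was -0.07 log2. The counts moved with single libraries: in the second latest leaf they were 0 without treated replicate 1, treated replicate 3 or control replicate 3, and 12 without treated replicate 2. For the latest leaf they were 6 and 5 without treated replicates 1 and 3, and 9 and 5 without control replicates 2 and 3.

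Among the named features, feature 19306 had the largest called rise at drought days 6 and 9 in both leaves. At drought day 6 it had 55.9, 63.1 and 163 CPM in the treated and 2.34, 14.5 and 10.8 CPM in the control latest leaf, and its groups did not overlap. The log2 ratio was 3.23 ± 0.65 (adjusted p = 0.00783). At day 9 it had 54.1 and 104 CPM in treated against 3.11, 3.38 and 3.24 CPM in control latest leaves, with a log2 ratio of 4.31 ± 0.74 (adjusted p = 0.000731). The second latest leaf behaved likewise, with 37.5, 27.7 and 83.9 CPM in treated and 7.07, 5.79 and 10.1 CPM in control plants at day 9 (log2 ratio 2.60 ± 0.57, adjusted p = 0.0167). That call was lost without treated replicate 3 (log2 ratio 2.05) and without control replicate 1 (2.56) or 2 (2.42). The feature was also higher before drought, at 17.7, 12.8 and 21.6 CPM in treated against 3.04, 4.01 and 2.62 CPM in control latest leaves at day 0, which did not pass the test (adjusted p = 0.101).

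The order was the other way round for feature 19306 at 2 h after rewatering. Its treated second latest leaves then held 3.83, 4.14 and 4.61 CPM, against 24.6, 22.7 and 18.1 CPM in the controls. The groups did not overlap, and the log2 ratio was -2.31 ± 0.60 (adjusted p = 0.00631). Latest leaves had 11.3, 3.8 and 4.9 CPM in treated and 7.72, 9.1 and 9.26 CPM in control plants, which overlapped and gave no call (adjusted p = 0.75). By rehydration day 3 the treated second latest leaf was at 45.1, 23.9 and 57.1 CPM, within the range of 21.7 to 113 CPM in the controls.

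Feature 9793 gave the other wide rise at day 6. It had 33.9, 18.5 and 31.9 CPM in treated and 1.17, 3.08 and 4.64 CPM in control latest leaves (log2 ratio 3.16 ± 0.67, adjusted p = 0.01), without overlap. The call was lost without treated replicate 1 (log2 ratio 2.99) or control replicate 1 (2.79), and the feature's difference at day 0 given above was as large. Feature 33929 rose in the second latest leaf at day 6, with 175, 64.2 and 87.7 CPM in treated and 16, 39 and 16.3 CPM in control plants (log2 ratio 2.06 ± 0.50, adjusted p = 0.0331). This call was lost without treated replicate 1 (1.55) or 3 (2.20), or control replicate 1 or 3 (1.85 each).

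Feature 35557 was the clearest fall. At drought day 6 it had 152, 365 and 81.7 CPM in the treated second latest leaf, against 1238, 848 and 1102 CPM in the control leaf. The latest leaf had 67.1, 134 and 46.9 CPM in treated and 464, 382 and 636 CPM in control plants. Neither leaf's groups overlapped, and the log2 ratios were -2.55 ± 0.51 (adjusted p = 0.0139) and -2.71 ± 0.55 (adjusted p = 0.00822). At day 9 the treated second latest leaf had 770.0, 677 and 228 CPM and the control leaf 3315, 1938 and 1334 CPM, again without overlap (log2 ratio -2.04 ± 0.50, adjusted p = 0.0284). Its latest leaves had 169.9 and 73.4 CPM in treated against 1031, 676 and 471 CPM in control plants (log2 ratio -2.81 ± 0.65, adjusted p = 0.0078).

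The calls of feature 35557 rested on single libraries, though not its direction. At day 6 the second latest leaf call was lost without treated replicate 1 (log2 ratio -2.36) or 3 (-2.17) or control replicate 3 (-2.54), and the latest leaf call without treated replicate 1 (-2.58). At day 9 the second latest leaf call was lost without treated replicate 2 (-2.18) or 3 (-1.65) or control replicate 1 (-1.56) or 2 (-2.15), and the latest leaf call without treated replicate 3 (-2.29). After rewatering no call was made for it. At 2 h the treated second latest leaf was at 113, 197 and 231 CPM against 375, 345 and 599 CPM in controls (log2 ratio -1.19 ± 0.49, adjusted p = 0.0875). By rehydration day 3 treated and control libraries overlapped, at 166 to 386 CPM in treated and 195 to 385 CPM in control second latest leaves. At rehydration day 6 the treated second latest leaves, at 161, 55.0 and 91.0 CPM, were again below every control, at 345, 267 and 202 CPM (log2 ratio -1.16 ± 0.49, adjusted p = 0.238).

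Feature 32191 and feature 9428 fell by less. Feature 32191 had 14.7, 16.2 and 8.92 CPM in treated and 29.5, 21.9 and 25.1 CPM in control second latest leaves at day 6 (log2 ratio -1.08 ± 0.22, adjusted p = 0.0144), and 9.7, 10.6 and 10.4 CPM against 17.7, 16.9 and 19.2 CPM at day 9 (-0.89 ± 0.22, adjusted p = 0.0306). The day 6 call was lost without treated replicate 1 (-1.14) or 3 (-0.86) or control replicate 3 (-1.10), and the day 9 call without any of its 6 libraries (log2 ratios between -0.96 and -0.83). Feature 9428 fell in the latest leaf at day 6, with 12.2, 15.4 and 14.4 CPM in treated and 29.5, 43.9 and 33.5 CPM in control plants (-1.49 ± 0.23, adjusted p = 0.00105). At day 9 that feature's treated latest leaves, at 17.5 and 14.1 CPM, overlapped controls at 17.7, 12.8 and 13.7 CPM.

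Drought day 9 was the stage with the most calls in the set, all but 10 of them in the latest leaf. There 50 of the 200 features were higher in treated than in control plants (5.44% of all 21037 features) and 2 were lower (6.1%). The median was 0.70 log2, with 156 features positive, beside a median of 0.00 over all features. The treated level of the set in this leaf, 3.41, lay between its values at drought days 0 and 6, 3.39 and 3.58. The control level was 2.59 at day 9, against 3.07 and 3.44 at days 0 and 6. Treated and control libraries did not overlap for 124 of the 200 in the upward (34.5% of all features) and 6 in the downward direction (8.08%). Within the second latest leaf 10 features were called (2.5% of all features), 7 that rose (1.09%) and 3 that fell (1.4%), with a median of 0.17 log2. Because control libraries of this stage helped to choose the features, they were also chosen on the other 5 stages alone, which kept 185 of the 200. Of the 200 so chosen, 49 rose and 2 fell in the latest leaf, with a median of 0.72 log2.

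The number at day 9 moved with single libraries. With all libraries 52 were called in either direction in the latest leaf, 24 without control replicate 3, the control with the lowest level of the set, and 15 and 20 when only 1 treated library was left, without replicates 1 and 3. It was 35 and 69 without control replicates 1 and 2. For the second latest leaf the 10 calls became 5, 3 and 1 when treated replicates 1, 2 and 3 were left out in turn, and 1 and 2 when control replicates 1 and 2 were.

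Features called higher in treated latest leaves were found in every abundance class, with the largest share in the most abundant class. Among features with a mean under 10 CPM in the control second latest leaf 16 of 65 rose. It was 22 of 107 among those from 10 to 50 CPM, and 12 of 28 among those over 50 CPM. The matching shares over all features are not given, so these counts cannot be read as particular to the set. Of the named features, 5966 and 19306 rose most. Feature 5966 had 13.9 and 7.5 CPM in the treated and 0.741, 1 and 0.13 CPM in the control latest leaf, where its groups did not overlap (log2 ratio 3.93 ± 0.91, adjusted p = 0.00811; lost without treated replicate 1). The same feature had 9.15, 1.91 and 2.14 CPM in treated and 14.8, 18 and 5.06 CPM in control second latest leaves, which overlapped, with a log2 ratio of -1.51 ± 0.86 (adjusted p = 0.376). Feature 55115 rose in the second latest leaf instead, with 11.7, 9.48 and 13.1 CPM in treated and 1.74, 3.15 and 3.37 CPM in control plants (2.01 ± 0.54, adjusted p = 0.0426), a call that was lost without any 1 of the 6 libraries (log2 ratios between 1.76 and 2.22). Its latest leaves had 2.32 and 2.94 CPM in treated and 1.28, 0.376 and 0.454 CPM in control plants, with no call (adjusted p = 0.21).

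**Figure D3:**
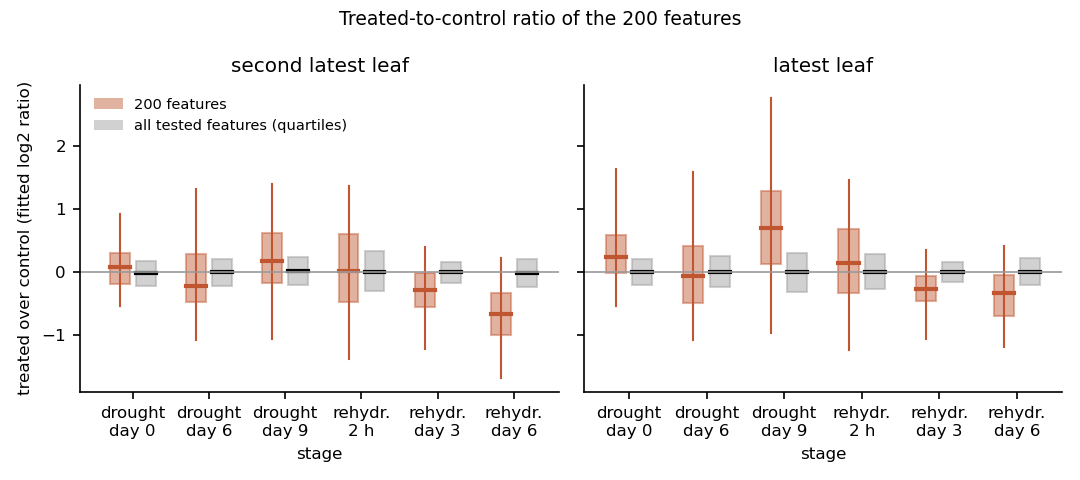
Response of the 200 features, as fitted log2 ratio of treated over control, by stage and leaf; boxes span the quartiles, the line is the median and whiskers reach the 5th and 95th percentile. Grey boxes beside them give the quartiles and median of all features tested. The median of the 200 is highest in the latest leaf at drought day 9 (0.70) and lowest in the second latest leaf at rehydration day 6 (-0.66).

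Feature 35435, the leader of the rule, had the largest fitted ratio of the set in the latest leaf at day 9 and still gave no call. Its treated latest leaves had 870.0 and 1419.7 CPM and its controls 21.2, 132 and 0.324 CPM. The groups did not overlap, the controls spread widely, and the log2 ratio of 4.34 ± 1.73 did not pass (adjusted p = 0.0986). Its second latest leaves had 3992, 3622 and 4581 CPM in treated and 1349, 1815 and 1377 CPM in control plants (1.36 ± 0.78, adjusted p = 0.378). Feature 25456, at rank 3 in the rule, did pass in the latest leaf, with 5.79 and 7.64 CPM in treated and 1.28, 1.75 and 0.713 CPM in control plants (2.20 ± 0.73, adjusted p = 0.0484).

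Whether the latest leaf responded differently from the second latest was tested by the difference of the 2 responses, a test added after seeing the data. None of the 200 features was called at drought day 9 by edgeR's quasi-likelihood test (0% of all 21824 features), with 29 lower in the second latest leaf and none higher at an unadjusted p under 0.05 (8.08% of all features in either direction) and none by DESeq2. Leaving out control latest leaf replicate 2 gave 4 calls. The median difference of the responses was -0.47 log2 over the 200 and 0.02 over all features. The larger number of calls in the latest leaf was therefore not shown to be a difference between the leaves.

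The features enriched the other way give the counterpart. By the same rule with the sign turned, 119 features were higher in the latest leaf of control plants at all 6 stages, chosen on the same controls. At drought day 9 in the latest leaf none of these rose and 45 fell, beside the 5.44% and 6.1% of all features given above, with a median of -1.85 log2. They were already lower in treated plants at drought day 0, with medians of -0.52 log2 in the second latest and -0.66 in the latest leaf, where 100 of the 119 were negative. At rehydration day 6 their median in the second latest leaf was 0.97 log2, beside -0.66 for the 200 features enriched in the second latest leaf.

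At 2 h after rewatering the set changed in both directions. Of the 200 features 27 rose in the second latest leaf (12.4% of all features) and 13 fell (8.23%), with a median of 0.01 log2, so the shares were close to those over all features. The latest leaf had 14 that rose (7.58%) and 4 that fell (4.92%), with a median of 0.14 log2. Of the features that rose, 12 did so in both leaves, which is 44.4% of the 27 and 85.7% of the 14, and 3 fell in both. The matching overlap over all features is not given. The count in the latest leaf, 18 in all, was 9 without treated replicate 2 and 29 without treated replicate 3.

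Feature 25826 was among the features raised in both leaves. It had 66.5, 59.6 and 91.9 CPM in treated and 15.9, 15.7 and 20.5 CPM in control second latest leaves, and 42.5, 34.4 and 24.1 CPM against 6.35, 10.8 and 10.1 CPM in the latest leaf. No library overlapped, and the log2 ratios were 2.15 ± 0.39 (adjusted p = 0.000225) and 1.89 ± 0.39 (adjusted p = 0.00198). Feature 24310 rose likewise, at 23.9, 15.6 and 16.1 CPM in treated and 3.73, 5.34 and 4.23 CPM in control second latest leaves (2.13 ± 0.52, adjusted p = 0.00344), and at 23.3, 20.4 and 12 CPM against 1.37, 2.51 and 3.64 CPM in the latest leaf (2.89 ± 0.44, adjusted p = 0.000125). Its leaf difference in treated plants was close to 0 at that stage (-0.06 ± 0.53, adjusted p = 0.984). Feature 9954 rose in the second latest leaf, with 50.1, 19.4 and 15.8 CPM in treated and 3.95, 4 and 5.54 CPM in control plants (2.74 ± 0.55, adjusted p = 0.000588). So did feature 27022, with 24.8, 14.2 and 16.5 CPM against 5.81, 6.21 and 5.04 CPM (1.77 ± 0.37, adjusted p = 0.000977).

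Feature 38841 was called lower in treated plants in both leaves at 2 h, but it was already below every control before rewatering. At drought day 9 its treated second latest leaves had 2.03, 3.06 and 4.93 CPM and its controls 14.2, 26.1 and 16.9 CPM. Treated latest leaves then had 0.993 and 0.904 CPM against 2.37, 8.27 and 1.30 CPM. At 2 h its treated second latest leaves had 9.04, 4.75 and 5.81 CPM and its controls 11.9, 51.6 and 59.7 CPM. Treated latest leaves had 1.6, 0.935 and 1.33 CPM at 2 h and controls 3.68, 27.8 and 27.1 CPM. In each leaf control replicate 1 lay far below the other controls, yet the groups did not overlap. The log2 ratios were -2.53 ± 0.80 (adjusted p = 0.0226) and -3.87 ± 1.00 (adjusted p = 0.00997). The second latest leaf call was lost without treated replicate 2 (-2.35) or 3 (-2.51) or control replicate 2 (-2.32) or 3 (-2.23), and the latest leaf call without treated replicate 2 (-3.71). Feature 21114 fell in the second latest leaf, with 19.7, 16.8 and 23.9 CPM in treated and 69, 102 and 52.7 CPM in control plants (-1.82 ± 0.41, adjusted p = 0.00202). Feature 35895 fell in the latest leaf, with 8.12, 3.86 and 7.03 CPM against 10.3, 13.7 and 21.3 CPM (-1.26 ± 0.35, adjusted p = 0.0175; lost without treated replicate 2, at -1.02, or control replicate 3, at -0.97).

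**Figure D4:**
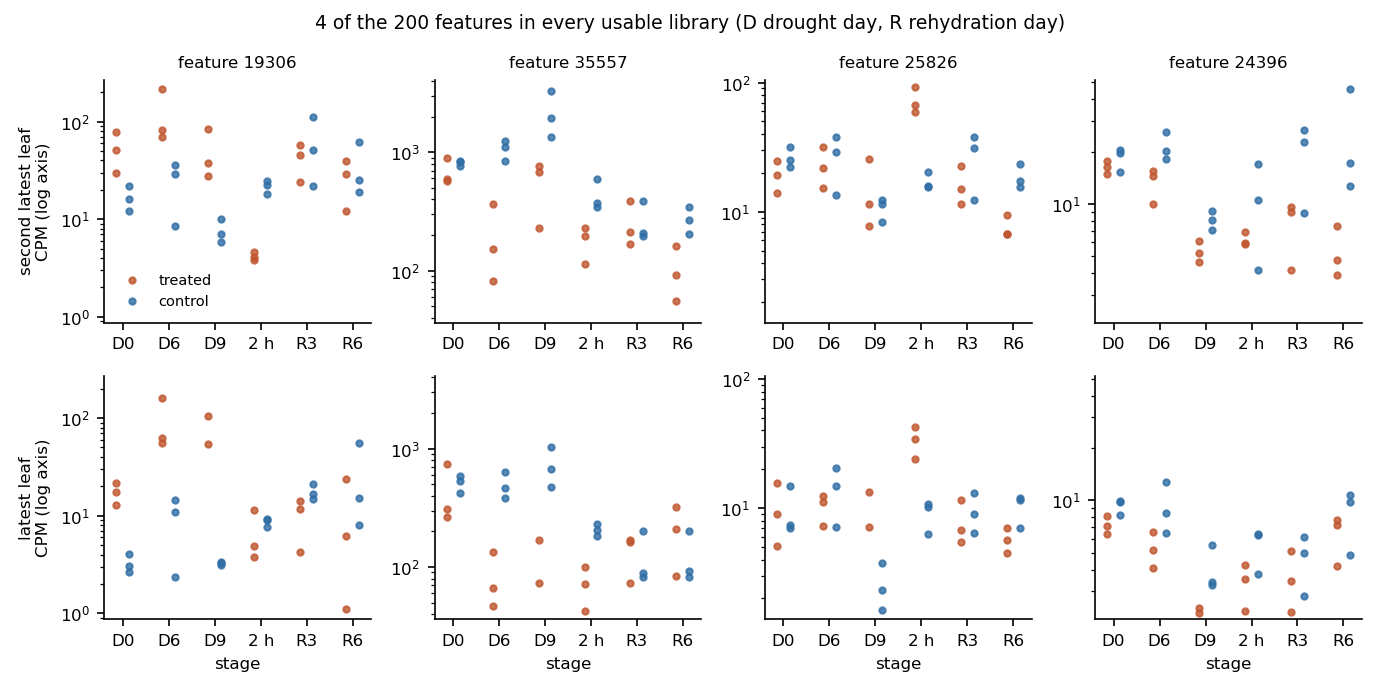
CPM of 4 named features in every usable library, by stage and leaf on a logarithmic axis, with treated left of control. Feature 19306 lies at 54.1 and 104 CPM in treated latest leaves at drought day 9, against 3.11 to 3.38 CPM in controls, and is at 3.83 to 4.61 CPM in treated second latest leaves at 2 h, against 18.1 to 24.6 CPM in controls.

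The 50 features called higher in treated than in control latest leaves at drought day 9 were in part called higher elsewhere. They included 8 of the 9 that rose in the latest leaf at day 6 and 8 of the 14 that rose there at 2 h, each of which is 16% of the 50. They also included 5 of the 7 that rose in the second latest leaf at day 9 and 13 of the 27 that rose in that leaf at 2 h, which are 10% and 26% of the 50. These comparisons within a stage and leaf use their own libraries, but the features had been chosen on all controls. The matching overlaps over all features are not given, so these counts cannot be read as particular to the set. Over the 50, the median log2 ratio in the latest leaf was 0.28 at drought day 0, with 42 positive, 0.20 at day 6, 0.56 at 2 h, -0.41 at rehydration day 3 and -0.44 at day 6. The medians of the other 150 were 0.23, -0.09, -0.06, -0.21 and -0.29 at the same stages. At drought day 9, where the calls chose the 50, the medians were 1.50 and 0.41.

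By rehydration day 3 no feature was called in either leaf. For the second latest leaf edgeR's quasi-likelihood test called 0 of the 200 (0% of all features). There 39 were lower and none higher at an unadjusted p under 0.05 (9.31% of all features in either direction). DESeq2 called 2 lower, and its share over all features is not given. For the latest leaf edgeR also called 0 of them (0%), with 15 lower and 1 higher at an unadjusted p under 0.05 (5.16%), and DESeq2 called none. The medians were -0.29 and -0.27 log2, with 155 and 163 of the 200 negative. Treated replicate 2 stood apart at this stage, with a level of the set of 3.40 in the second latest leaf against 4.30 and 4.23 in the other treated replicates, and of 2.45 in the latest leaf against 3.04 and 3.29. Leaving out control replicate 2 of the second latest leaf gave 13 calls.

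At rehydration day 6 the set was lower in treated plants, most of all in the second latest leaf. There 7 features were called (0.263% of all 20950 features), all of which fell (0.143%) while none rose (0.119%), and 175 of the 200 had a negative log2 ratio, with a median of -0.66 beside -0.01 over all features. At an unadjusted p under 0.05, 97 were lower and 4 higher (16.3% of all features in either direction). DESeq2 called 36 lower (0.921% of all features) and 1 higher (1.32%). Treated libraries lay below all controls for 109 of the 200 (27.5% of all features) and above them for 3 (4.18%). For the latest leaf edgeR's test called none (0%), with 35 lower and 3 higher at an unadjusted p under 0.05 (12.9%), none by DESeq2, and a median of -0.34.

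In each leaf treated replicate 2 had the highest treated level of the set at rehydration day 6. At day 3 the treated library of that number had the lowest. The day 6 level of replicate 2 was 4.01 in the second latest leaf, against 3.29 and 3.60 in the other treated replicates. In the latest leaf it was 3.40, against 2.63 and 2.94. Without treated replicate 2, 20 features were called in the second latest and 15 in the latest leaf. Leaving out any other library of the second latest leaf gave fewer calls, namely 0 without treated replicate 1 or 3 or control replicate 3, 2 without control replicate 1 and 1 without control replicate 2.

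Features 24396 and 5214 had the largest called falls at that stage under the naming rule. Feature 24396 had 3.91, 7.51 and 4.73 CPM in treated and 17.2, 12.6 and 45.6 CPM in control second latest leaves (log2 ratio -2.01 ± 0.39, adjusted p = 0.0333). Feature 5214 had 3.19, 6.28 and 4.06 CPM in treated and 13.4, 18.5 and 18.9 CPM in control plants (-1.71 ± 0.32, adjusted p = 0.0303). Both were below every control, and their calls were lost without treated replicate 1 (-1.87 and -1.56) or 3 (-1.92 and -1.65), or control replicate 3 (-1.31 and -1.65), and for feature 5214 also without control replicate 2 (-1.63). Feature 24396 was lower in treated second latest leaves at drought day 9 too, with 4.66, 5.2 and 6.15 CPM against 8.06, 7.06 and 9.12 CPM, but without a call (adjusted p = 0.373). Feature 5214 overlapped its controls at every earlier stage in that leaf except 2 h, where treated plants had 22.6, 23.8 and 25 CPM and controls 9.99, 16.9 and 21.1 CPM (adjusted p = 0.102).

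**Figure D5:**
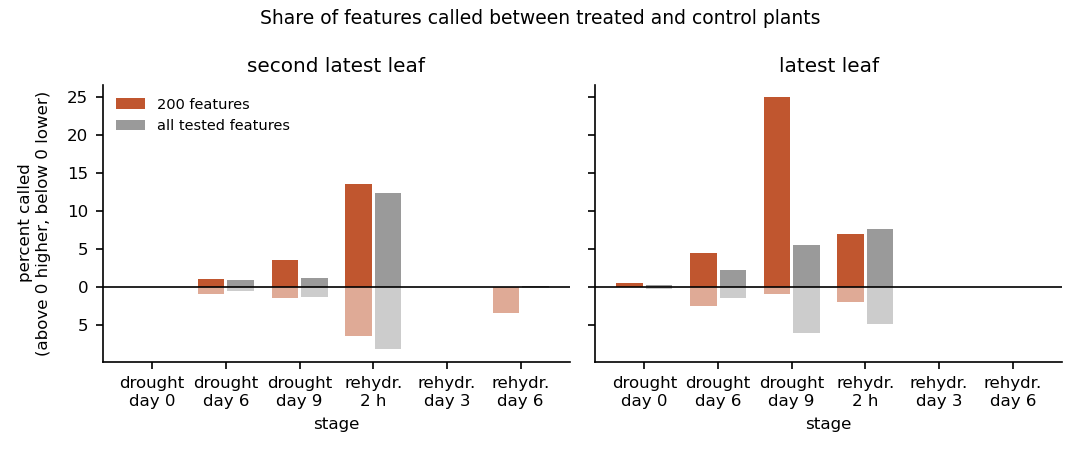
Percent of features called in each comparison of treated with control plants at an adjusted p under 0.05, higher above and lower below the zero line, for the 200 features (orange) and for all features tested (grey), with lower calls in paler shades. The 200 features reach 25% higher in the latest leaf at drought day 9, against 5.44% of all features, and lie close to all features at 2 h.

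The change of the response between stages was tested directly. The latest leaf response of 17 of the 200 was higher at drought day 9 than at day 6 (1.08% of all features) and of none lower (0.223%). From day 6 to day 9 the level of the set in this leaf went from 3.44 to 2.59 in control plants. In treated plants it went from 3.58 to 3.41. From day 9 to 2 h none turned higher (1.18%) and 4 turned lower (0.618%), and from 2 h to rehydration day 3 the counts were 2 higher (2.57%) and 11 lower (4.2%). No response of the second latest leaf was called different between drought days 6 and 9 (0% of all features, edgeR; 23 at an unadjusted p under 0.05, 9.01% of all features, and none by DESeq2). It was higher for 7 (4.8%) and lower for 5 (2.43%) at 2 h than at day 9, and higher for 3 (4.86%) and lower for 30 (9.37%) at rehydration day 3 than at 2 h.

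Most of these counts moved with single libraries of the stages compared. The 17 calls from day 6 to day 9 in the latest leaf became 0 without treated replicate 1 or control replicate 2 or 3 of day 6, and without treated replicate 1 or control replicate 3 of day 9. They became 5 without treated replicate 2 of day 6, 1 without control replicate 1 of day 9, and 29 and 26 without control replicate 1 of day 6 and control replicate 2 of day 9. The 4 calls from day 9 to 2 h ranged over 1 to 6, with 1 when treated replicate 3 of day 9 was left out and 2 without treated replicate 2 or control replicate 3 of 2 h, or control replicate 1 or 3 of day 9. The 13 calls from 2 h to rehydration day 3 became 4 and 2 without treated replicates 1 and 2 and 8 and 6 without control replicates 1 and 2 of 2 h. They became 3 and 23 without treated replicates 1 and 3 and 5 and 4 without control replicates 1 and 2 of rehydration day 3. For the second latest leaf the 12 calls from day 9 to 2 h became 3, 19 and 3 without treated replicates 1, 2 and 3 and 5 without control replicate 2 of day 9. They became 6 and 4 without treated replicates 2 and 3 and 5 without control replicate 2 of 2 h. The 33 calls from 2 h to rehydration day 3 ranged over 25 to 48 with 1 library left out.

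Between the end of drought and the end of rehydration the treated-to-control responses moved down. This contrast was added after seeing the data. The level of the set in the latest leaf went from 2.59 to 3.57 in control and from 3.41 to 2.99 in treated plants. In the second latest leaf it went from 3.83 to 4.46 in control and from 4.04 to 3.63 in treated plants. Of the 200 features 56 had a lower response at rehydration day 6 than at drought day 9 in the latest leaf (5.49% of all features) and 3 a higher one (8.01%), with a median change of -1.08 log2. The second latest leaf had 23 called (2.65% of all features), all of them lower (1.22%) and none higher (1.43%), with a median of -0.74 log2, beside -0.02 over all features. Those 23 became 38 without treated replicate 2 of rehydration day 6 and 3 and 4 without its replicates 1 and 3. They became 8 and 13 without treated replicates 2 and 3 of drought day 9, 6 and 12 without control replicates 1 and 2 of that day, and 11 and 7 without control replicates 2 and 3 of rehydration day 6. The 59 calls of the latest leaf became 33 without treated replicate 1 or 3 of drought day 9, 37 without its control replicate 3 and 35 without treated replicate 1 of rehydration day 6.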

How the data were processed

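Leaf RNA of irrigated and drought-treated IR64 rice was sequenced in 72 libraries. The authors deposited raw read counts per feature with no normalisation. Their processing notes name the aligner STAR, the counter featureCounts 2.0.0 and the genome build IRGSP-1.0. As to aligner version, annotation and strand, these were not given in the sources used here, so overlapping, antisense and near-identical features could not be told apart. Every column was matched to a sample through the library name that its label states, which left 0 columns over. CPM used column totals, and log2 values a pseudocount of 1.

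Quasi-likelihood models in edgeR 4.0.16 (R 4.3.3; filterByExpr, trimmed mean of M values, 1 mean per group) were fitted to each leaf position, to all treated libraries for the leaf difference, and to all libraries for the difference of responses. A library with under 100000 counts was left out. A feature was called at a p under 0.05 after Benjamini-Hochberg adjustment over all features of a contrast, and standard errors are the log2 ratio divided by the root of F. DESeq2 1.42.0 was an alternative, as were other scaling factors, no low-count filter, the near-empty library kept, a replicate block, members chosen on the other 5 stages, and single libraries left out. The members, the naming rule and the tests were chosen with earlier results of these data known. The text names the first 5 members of the rule, the 5 most abundant, the 2 largest called rises and falls without overlap and with at least 10 CPM at drought days 6 and 9, 2 h and rehydration day 6, the 2 highest and 2 lowest treated leaf differences at drought day 9 and 2 h, and the features at the limit. No gene list or marker list was applied, since the lines carry no identifiers.

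Replicates were compared before averaging, and none of 70 pairs was a copy of another (chi-square per degree of freedom 6.53 to 176). Same-numbered leaves of treated plants were taken as paired where all correlations of their deviations from the group means were above 0.1, which held at drought days 0 (0.332 to 0.521) and 6 (0.384 to 0.612), at 2 h (0.188 to 0.54) and at rehydration day 6 (0.159 to 0.685). Correlations at drought day 9 were also above 0.1 (0.539 to 0.706), but only 2 pairs existed and that stage was not taken as paired. Rehydration day 3 fell short (-0.0348 to 0.673). The pairing comes from the data, as the labels do not state it. Treated and control libraries were not paired at any stage. Each fit was tested on simulated data with known changes before use. Counting floors cover counting error only.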

Additional observations from a re-analysis of the deposited data

Results flagged for a closer look

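Each of these results is a tested change of the treated-to-control response between stages. For the second latest leaf 12 of the 200 features had a different response at 2 h after rewatering than at drought day 9, of which 7 were higher at 2 h. The share over all features, in either direction, was 7.23%. At rehydration day 3, 33 had a different response than at 2 h (14.2% of all features), of which 30 were lower at day 3. As totals, the 12 and 33 were close to the shares over all features. In that leaf 23 had a different response at rehydration day 6 than at drought day 9 (2.65% of all features), all of them lower at rehydration day 6.

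For the latest leaf 17 features had a higher response at drought day 9 than at day 6 (1.3% of all features in either direction). The response of 4 was lower at 2 h than at drought day 9 (1.8% in either direction), and that of 13 differed between rehydration day 3 and 2 h (6.77%). As totals, the 4 and 13 were close to these shares over all features. The response of 59 differed between rehydration day 6 and drought day 9 (13.5%), of which 56 were lower at rehydration day 6. Responses at neighbouring stages share the libraries of the stage between them. With 1 library left out, the 12, 33 and 23 calls of the second latest leaf ranged over 3 to 19, 25 to 48 and 3 to 38, and the 17, 4, 13 and 59 of the latest leaf over 0 to 29, 1 to 6, 2 to 23 and 33 to 81. Groups of up to 3 libraries were not searched for outlying samples.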

How the results depend on the processing

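Numbers are members called in either direction, and most of them moved without the low-count filter, where edgeR's prior degrees of freedom were between 77.1 and infinite, against 4.09 to 4.53 with it. Without the filter 41795 to 45767 features entered a fit, against 20950 to 21824 with it. The share of all features called is not given beside these counts, so they describe the settings and not the set. For treated against control without the filter they were 4, 32, 44, 66, 17 and 73 in the second latest leaf over the 6 stages in order, and 44, 69, 111, 74, 18 and 49 in the latest leaf. For changes of response they were 5 (drought day 9 minus 6), 38 (2 h minus drought day 9), 62 (rehydration day 3 minus 2 h) and 73 (rehydration day 6 minus drought day 9) in the second latest leaf, and 62, 53, 65 and 122 in the latest. For the treated leaf difference they were 92, 79, 21, 83, 124 and 47, and for the difference of responses 2 at drought day 9 and 3 at rehydration day 6. The tests of rehydration day 6 minus drought day 9 and of the difference of responses were chosen after seeing the data.

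DESeq2 gave 15, 22, 2 and 37 in the second latest leaf at drought days 6 and 9 and rehydration days 3 and 6, and 5 and 29 in the latest leaf at drought day 0 and 2 h. It gave 25 and 35 for the changes to 2 h and to rehydration day 6 from drought day 9 in the second latest leaf, 20 for rehydration day 3 minus 2 h in the latest, and 40, 45, 5, 35, 48 and 19 for the treated leaf difference. For the difference of responses at rehydration day 6 it gave 2. With the replicate block the treated leaf difference gave 115, 100, 14, 94, 135 and 59. Drought day 9, with only 2 pairs, and rehydration day 3 were not taken as paired. The block gave 6 and 11 in the second latest leaf at drought day 9 and rehydration day 6, 0 in the latest leaf at drought day 0, and 7 for rehydration day 3 minus 2 h there. These treated and control samples share only a number.

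Keeping the near-empty library gave 7, 1 and 8 for the treated leaf difference at drought day 0, 2 h and rehydration day 3, and 1 fit of treated and control libraries gave 20, 4 and 18. Members chosen on the other 5 stages gave 7 in the second latest leaf at drought day 6. The rule with scaled libraries passed 113 features, a minimum of 10 CPM 182, and leaving out 1 replicate number 161 to 246. Other scaling factors changed no count by more than 1.5 times.

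With 1 library left out, treated against control ranged over 0 to 0, 0 to 12, 1 to 13, 30 to 41, 0 to 13 and 0 to 20 in the second latest leaf, and 0 to 1, 5 to 10, 15 to 69, 9 to 29, 0 to 0 and 0 to 15 in the latest. The 4 changes of response ranged over 0 to 0, 3 to 19, 25 to 48 and 3 to 38 in the second latest leaf, and 0 to 29, 1 to 6, 2 to 23 and 33 to 81 in the latest. The treated leaf difference ranged over 0 to 11, 0 to 14, 0 to 0, 0 to 34, 0 to 53 and 0 to 37. The difference of responses ranged over 0 to 4 at drought day 9 and 0 to 2 at rehydration day 6 and was not run at other stages. For the 33 values of named features, 350 settings gave 280 with the same call and direction, 58 with the call lost, 6 with a call gained and 6 with the sign turned. The turned signs were treated leaf differences at 2 h with 1 library left out, which ranged over -0.31 to 0.21 for feature 21114 and -0.28 to 0.083 for feature 24310 (-0.06 each with all libraries). Groups of 3 libraries, and of 2 in the treated latest leaf at drought day 9, limit every count.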

Other observations

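The 200 features varied more between replicates than others and varied together. Their median within-group SD was 0.411 log2 in treated second latest leaves, 0.439 in treated latest leaves, 0.392 in control second latest and 0.425 in control latest leaves, against 0.215 to 0.227 over 15123 eligible features. The mean correlation between 2 members' deviations from their group means was 0.235 in treated and 0.263 in control second latest leaves, and 0.408 and 0.405 in latest leaves, against 0.091 and 0.155, and 0.159 and 0.176, over eligible features. The 119 features enriched in the latest leaf also varied together, with mean correlations of 0.271 in treated and 0.142 in control second latest leaves, and 0.416 and 0.428 in latest leaves. These are descriptions, since features of 1 library share its leaf and depth.

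Across the 200 features, the control leaf difference at the other 5 stages went with the response at drought day 9 in the latest leaf (Pearson r = 0.328, Spearman rho = 0.261) and, in the opposite sense, with the response at rehydration day 6 in the second latest leaf (r = -0.224, rho = -0.246). The relation to the response at 2 h in the second latest leaf was weak (r = 0.064, rho = 0.08). Features are not independent replicates, and the responses share control libraries with the choice of the features, so no p-value is given.

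Single libraries stood apart for some features. Feature 35435, at 1590.4 and 1634 CPM in treated second latest leaves 3 and 1 at rehydration day 3, had 23.5 CPM in replicate 2, and in the latest leaf 0.109 CPM there against 17.8 and 46.8 CPM in the other treated replicates. Feature 38841 had 0.341 CPM in treated second latest leaf replicate 2 at that stage, against 59.7 and 17.1 CPM in the other 2. These values were picked here after being seen.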
